A study of Mus musculus with 20 samples.

Results

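The genes described here are 59 translation factors, their direct regulators and tRNA synthetases, out of 9230 genes with a probe of their own on a mouse CodeLink array. They were chosen by symbol alone, from names that begin with Eif or Eef and a digit, that consist of a single letter and "ars" with or without a 1 or 2, or that begin with Gspt or equal Etf1, and the brightest probe stood for each gene. No measured value entered this rule except brightness between 2 probes of Eif4e2, though earlier results of these data were known when the rule was set. All 59 symbols were found in RefSeq under the same name. Some members are not factors themselves. The 4 eIF2 kinases, Eef2k, the eIF4E-binding proteins and Eef1akmt1, a methyltransferase that acts on eEF1A, control or modify factors, and the role of Eif1ad in translation is uncertain.

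Protein synthesis needs initiation factors that bring a ribosome to a start codon, elongation factors that move it along the message, release factors that end the chain, and aminoacyl-tRNA synthetases that load each tRNA with its amino acid. Initiation is the main point of control. Kinases that phosphorylate eIF2 lower initiation on most messages, and binding proteins that hold the cap-binding protein eIF4E keep it from the rest of its complex. In nervous tissue these factors serve growing and newborn neurons as well as mature cells with high protein turnover, such as photoreceptors, which renew their outer segments throughout life.

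The arrays compared a pool of total RNA from adult C57/B6 mouse retina with a pool from Swiss-Webster mouse cortex at postnatal day 1. A first site ran 5 arrays of each pool and site 2 ran 5 more, which gave 20 one-colour arrays labelled with biotin. All 5 arrays within a group were hybridised with RNA of 1 pool as technical replicates, so p-values measure the spread between arrays and not between animals, and tissue, strain and age cannot be told apart. How many animals a pool held was not given by the labels. Values are intensities in array units, where the median probe of every array read between 0.927 and 0.963, and a probe's level is not set against another probe's. A fold is the ratio of means taken on the log2 scale. All 59 members had values enough to be tested, with 7 blank readings among them. In bulk RNA, fewer cells of a type and less RNA per cell cannot be told apart.

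The labels of the pools were borne out by marker probes. All 7 measured rod photoreceptor markers and all 6 markers of other retinal neurons were at least 2-fold higher in retina at both sites, and all 5 measured markers of cortical excitatory neurons were at least 2-fold lower. Of 6 measured markers of dividing cells, 5 were lower in retina, and the summed intensity of the list was 1.52 to 1.88 on first-site retina arrays, against 13.5 to 14.2 on first-site cortex arrays, and 1.94 to 3.40 on site 2 retina arrays, against 13.5 to 15.4 on site 2 cortex arrays. All 4 measured connective tissue markers were lower in retina as well, with summed intensities of 0.430 to 0.486 in retina against 4.10 to 4.69 in cortex at the first site, and 0.422 to 0.491 in retina against 4.60 to 6.03 in cortex at site 2. The red cell marker Hba-a1 was lower in retina too (log2 differences -1.86 and -2.41). At the first site 2 of 4 pituitary, 2 of 6 skeletal muscle and 2 of 3 microglia markers were at least 2-fold lower in retina, and 1 muscle marker was higher. There 1 of the 3 microglia markers was higher in retina by less than 2-fold, with an adjusted p under 0.05 in limma. The marker lists thus differed between the same 2 pools, in both directions. Their part in the tissue differences given below was not tested. Cortex site 2 replicate 5 stood apart from its group, with a median distance of 0.392 log2 units from the mean of its other arrays, while the other 19 arrays had 0.101 to 0.184. Without it the site 2 counts of members given below were 5 called, all lower in retina, with 34 passing as lower and 5 as higher, in place of 4, 29 and 6.

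Most translation genes differed little between the tissues, and those that differed were mostly lower in adult retina. At the first site 29 of the 59 members passed the test as lower in retina and 4 as higher, where passing means an adjusted p under 0.05 in limma over all 10339 probes tested. At site 2 the counts were again 29 lower and 6 higher. Among all probes 31.3% passed as lower and 28.6% as higher at the first site, and 32.1% as lower and 28.4% as higher at site 2, so 49.2% of members passed as lower at each site and 6.78% and 10.2% as higher. The median log2 difference of the members was -0.22 at the first site and -0.24 at site 2, beside -0.04 and -0.05 over all probes.

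Changes of at least 2-fold were rare. At the first site 5 members passed the test and were at least 2-fold lower in retina, which is what "called" means below, namely Eef1b2, Eef2k, Eif1ax, Eif3a and Eif4ebp1. At site 2 the 4 called members were Eef1b2, Eef2k, Eif2ak1 and Eif4a1. No member was called higher at either site. Of all probes at the first site, 13% were called lower and 11.9% higher, and at site 2 the shares were 13.5% lower and 11.1% higher. The members' called shares, both directions together, were 8.47% and 6.78%, beside 24.9% and 24.6% over all probes. Their median absolute log2 difference was 0.30 at the first site and 0.34 at site 2, beside 0.50 and 0.53 over all probes.

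**Figure D1:**
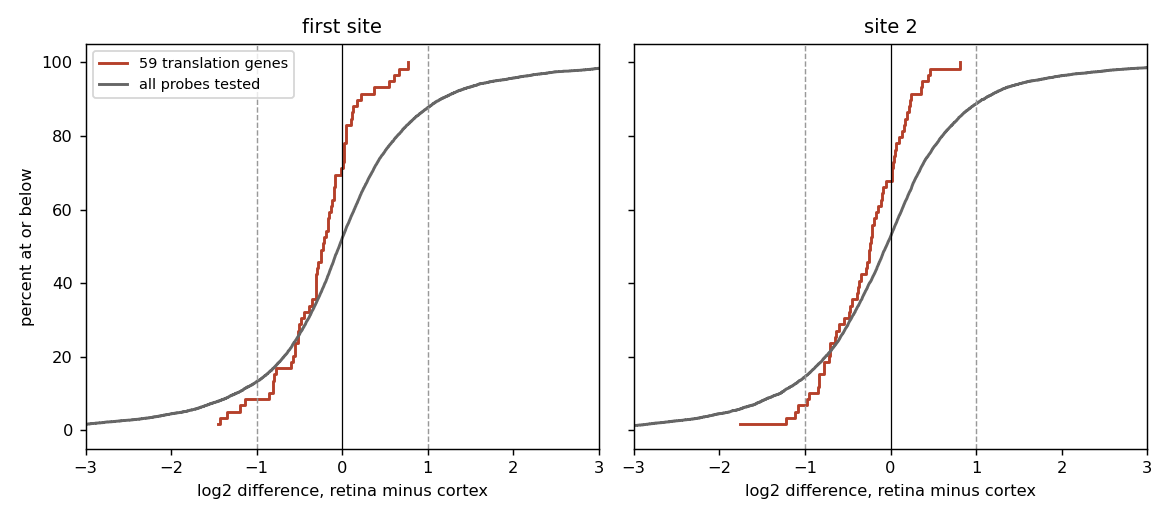
Cumulative share, in percent, of the 59 translation genes (red) and of all 10339 probes tested (grey) by log2 difference, retina minus cortex, at the first site (left) and site 2 (right), with dashed lines at 2-fold. The red curve crosses 50 percent at -0.22 and -0.24 and stays inside 2-fold for all but 5 and 4 members.

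Of the 59 members 24 passed at both sites and 20 at 1 site only. Among the 24, 22 passed as lower in retina and 2, Eif2ak3 and Eif4e3, as higher. Of the 7 members called at either site, Eef1b2 and Eef2k were called at both. Over all probes 26.1% passed as lower and 23.3% as higher at both sites, against 37.3% of members lower at both. A further 7 members passed as lower at the first site only, 7 as lower at site 2 only, 2 as higher at the first site only and 4 as higher at site 2 only. The remaining 15 passed at neither site, and none passed in opposite directions. The sign was the same at both sites for 55 members, which is 93.2%, beside 82.3% of all probes. Retina and cortex arrays did not overlap for 26 members at the first site and 27 at site 2, which is 44.1% and 45.8%, beside 53.3% and 48.2% of all probes. Arrays of a group agreed more closely for these probes than over all probes, though only slightly so in site 2 cortex. First-site arrays had a median SD of log2 intensity of 0.107 for retina and 0.138 for cortex, beside 0.162 and 0.165 over all probes. Site 2 arrays had 0.119 for retina and 0.21 for cortex, beside 0.158 and 0.225.

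**Figure D2:**
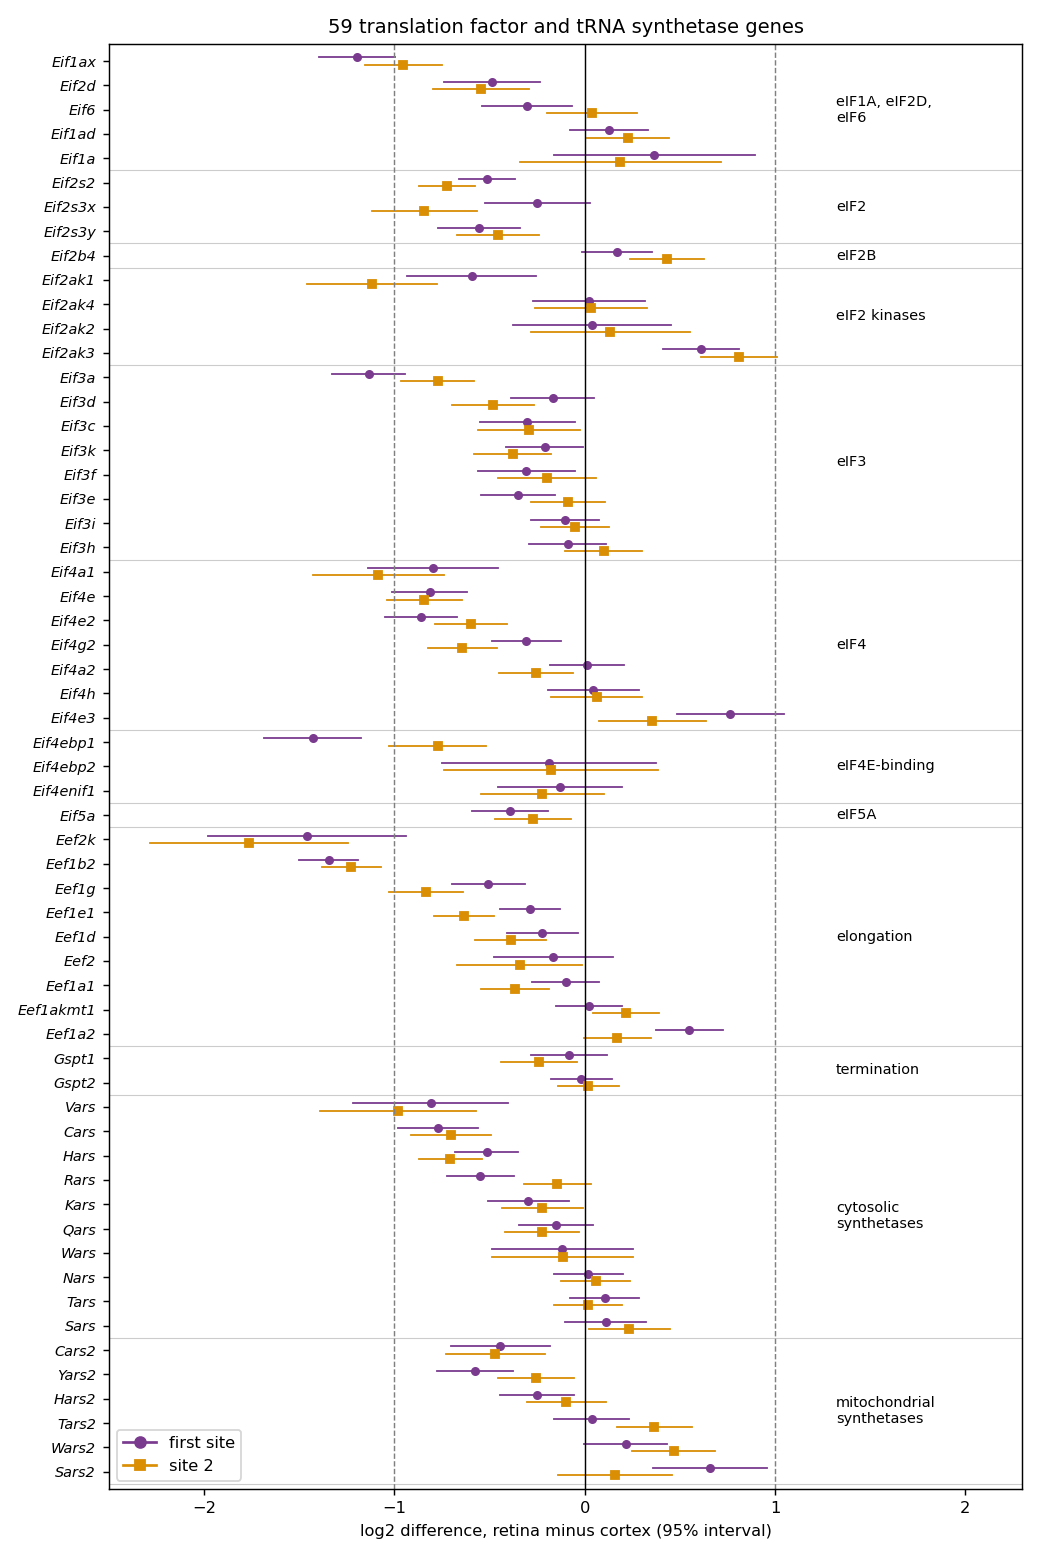
Log2 difference, retina minus cortex, for each of the 59 genes with its 95% interval, at the first site (purple circles) and site 2 (orange squares), grouped by role and ordered by the mean of the 2 sites, with dashed lines at 2-fold. Most points lie left of 0, and those beyond the left dashed line are 5 genes at the first site and 4 at site 2.

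Promoter sequence was available for 40 of the 59 genes from RefSeq (build GRCm38.p6), as 54 promoters of 300 bases that run from 250 bases before to 50 after an annotated start. Motifs were searched on both strands of all these promoters, whatever the direction of the gene, as a description. They were CACGTG, the E-box read by MYC, MITF and USF family proteins, CCGGAAGT, a site of ETS family proteins, and TGATGNAA, the element read by ATF4. CACGTG occurred in 22.2% of the members' promoters and 7.15% of all 32841 promoters, or in 10 of 40 member genes (25%) and 11.4% of 7315 genes on the array. CCGGAAGT occurred in 14.8% of member promoters and 3.89% of all, or 6 member genes (15%) and 6.79% of array genes. TGATGNAA occurred in 5.56% of member promoters and 3.97% of all, or 3 member genes (7.5%) and 3.06% of array genes. The windows printed here, 30 bases each on the strand of the gene with the match in capitals, are those of 6 members that passed as lower in retina at both sites. The first 5 hold CACGTG and the last 2 hold CCGGAAGT, read on the opposite strand in Eif2ak1, and no printed match overlaps another.
Eif4a1, chr11:69672595-69672624, minus strand: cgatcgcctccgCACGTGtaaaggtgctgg
Eef2k, chr7:120842788-120842817, plus strand: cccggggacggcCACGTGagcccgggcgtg
Eif3a, chr19:60790654-60790683, minus strand: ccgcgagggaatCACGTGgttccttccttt
Eif4e, chr3:138527028-138527057, plus strand: ctcgccagcgacCACGTGatcacttttttt
Eif4e, chr3:138527192-138527221, plus strand: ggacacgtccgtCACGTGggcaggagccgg
Eef1b2, chr1:63176821-63176850, plus strand: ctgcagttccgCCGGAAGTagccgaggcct
Eif2ak1, chr5:143817796-143817825, plus strand: gctcttgtgttACTTCCGGcttggggggag
Of the 10 genes with CACGTG, 5 (Eef2k, Eif3a, Eif4a1, Eif4e and Eif5a) passed as lower at both sites, Eif3f and Eif3k passed as lower at 1 site, and Eef2, Eif4h and Tars passed at neither. Over all 59 members, including those without promoter sequence, 37.3% passed as lower at both sites. That share was not counted for the 40 genes with promoter sequence alone. Of the 6 genes with CCGGAAGT, Eef1b2, Eif2ak1, Eif4e2 and Eif5a passed as lower at both sites. Eif3d passed as lower and Eif2b4 as higher at site 2 only. Windows of the other genes with a match were not printed. A match is a run of letters and not a bound site, and the starts used in these tissues were not measured.

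Among factors that act at the start codon or on free ribosomal subunits, Eif1ax, the X-linked gene of eIF1A, which helps the scanning ribosome recognise the start codon, was lower in retina. Eif1ax read 1.46, 1.63, 1.53, 1.66 and 1.59 units on the retina arrays, against 3.4, 3.58, 3.41, 3.7 and 3.95 units on the cortex arrays, at the first site. Eif1ax at site 2 read 1.06, 0.954, 0.857, 1.13 and 1.13 units on the retina arrays, against 2.07, 2.32, 1.95, 2.04 and 1.58 units on the cortex arrays. The tissues did not overlap at either site. The gene was 2.29-fold lower in retina on first-site arrays (log2 difference -1.20 ± 0.10, adjusted p = 1.9e-09) and 1.94-fold lower at site 2 (log2 difference -0.95 ± 0.10, adjusted p = 5.08e-08), where ± gives the standard error. Without cortex site 2 replicate 5 the site 2 difference was -1.03 and the gene was called there too. Eif2d, which can place initiator tRNA and helps recycle subunits, was lower at both sites (-0.48 (first site) and -0.55 (site 2)). Eif6, which keeps the large ribosomal subunit from joining too early, showed the smallest mean difference of this group. Eif6 read 2.63, 3.31, 3.16, 3.16 and 3.49 units on the retina arrays, against 4.08, 3.62, 4.64, 3.85 and 3.26 units on the cortex arrays, at the first site. Eif6 at site 2 read 3.89, 3.47, 3.5, 3.93 and 4.38 units on the retina arrays, against 4.24, 4.18, 3.96, 3.32 and 3.07 units on the cortex arrays. Retina and cortex overlapped at both sites, and only the first site passed (log2 difference -0.30 ± 0.11, adjusted p = 0.0269). The first-site difference did not pass in 3 of the 20 fits that left out an array. In such fits, here and below, a tissue difference moves only if the array is of its own site. Arrays of the other site enter its p-value alone, through a spread shared by all 20 arrays. At site 2 Eif6 gave 0.04 with a 95% interval of -0.20 to 0.27. The autosomal Eif1a probe, with a dim signal, gave 0.37 (first site) and 0.19 (site 2), and Eif1ad gave 0.13 (first site) and 0.23 (site 2), and neither passed. How far the Eif1a and Eif1ax probes read each other's RNA was not tested.

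The eIF2 complex carries initiator tRNA to the ribosome, and all 3 measured subunit genes had negative differences. Eif2s2 encodes its beta subunit. Eif2s2 read 21.3, 18.8, 18.1, 18.3 and 18 units on the retina arrays, against 24.9, 25, 27.5, 28.3 and 29.1 units on the cortex arrays, at the first site. Eif2s2 at site 2 read 17.5, 15.8, 16.3, 17.3 and 17.1 units on the retina arrays, against 27.1, 28.9, 27.2, 30.6 and 25.1 units on the cortex arrays. Every retina array was below every cortex array of its site. The gene was 1.43-fold lower in retina on first-site arrays (log2 difference -0.51 ± 0.07, adjusted p = 3.12e-06) and 1.65-fold lower at site 2 (log2 difference -0.72 ± 0.07, adjusted p = 3.13e-08). The gamma subunit has an X-linked gene, Eif2s3x, and a Y-linked gene, Eif2s3y. Eif2s3x gave -0.25 (first site) and -0.84 (site 2) and passed at site 2 (adjusted p = 1.5e-05) but not at the first site (adjusted p = 0.113). The difference between the sites did not pass either (adjusted p = 0.0767), but did without cortex site 2 replicate 1 (-0.70, adjusted p = 0.0271).

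Eif2s3y was lower in retina at both sites. Eif2s3y read 2.61, 2.31, 2.52, 2.28 and 2.19 units on the retina arrays, against 3, 3.18, 3.54, 3.78 and 4.1 units on the cortex arrays, at the first site. Eif2s3y at site 2 read 1.87, 1.69, 1.76, 1.91 and 1.92 units on the retina arrays, against 2.61, 2.63, 2.5, 2.93 and 1.94 units on the cortex arrays. The tissues did not overlap, though site 2 left only a narrow gap between the highest retina array and cortex replicate 5. The gene was 1.47-fold lower at the first site (log2 difference -0.56 ± 0.10, adjusted p = 0.000105) and 1.37-fold lower at site 2 (log2 difference -0.45 ± 0.10, adjusted p = 0.000774). Other Y-linked genes, chosen after their values were seen, had positive differences, with Zfy1 at 1.40 and 1.1, Uty at 1.28 and 0.63 and Kdm5d at 0.26 and 0.46, while the X-inactivation transcript Xist was at -1.38 and -1.22. The sex make-up of the pools was not given by the labels, and its part in the result was not tested.

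The exchange factor eIF2B reloads eIF2 with GTP, and its delta subunit gene Eif2b4 was the only measured member of that complex. Eif2b4 read 7.82, 7.77, 8.91, 7.81 and 7.96 units on the retina arrays, against 6.9, 7.61, 6.93, 6.84 and 7.52 units on the cortex arrays, at the first site. Eif2b4 at site 2 read 5.5, 5.11, 5.5, 6.35 and 5.98 units on the retina arrays, against 4.43, 4.22, 4.86 and 3.43 units on the 4 measured cortex arrays. Retina arrays were above cortex arrays at both sites with no overlap. Site 2 passed (log2 difference 0.43 ± 0.09, adjusted p = 0.000499) and the first site did not (log2 difference 0.17 ± 0.09, adjusted p = 0.104). At site 2 the eIF2 subunits had thus passed as lower and this subunit of their exchange factor as higher, with no difference of 2-fold among them.

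The 4 kinases that phosphorylate eIF2 each answer to a different stress, and they did not move as a group. Eif2ak1, the heme-regulated kinase, was lower in retina. Eif2ak1 read 0.339, 0.579, 0.504, 0.45 and 0.316 units on the retina arrays, against 0.727, 0.567, 0.63, 0.671 and 0.631 units on the cortex arrays, at the first site. Eif2ak1 at site 2 read 0.338, 0.374, 0.337, 0.334 and 0.278 units on the retina arrays, against 0.664, 0.809, 0.932, 0.719 and 0.524 units on the cortex arrays. At the first site 4 of 5 retina arrays lay below every cortex array, and at site 2 all 5 did. The difference was 1.51-fold at the first site (log2 difference -0.59 ± 0.16, adjusted p = 0.00365) and 2.17-fold at site 2 (log2 difference -1.12 ± 0.16, adjusted p = 6.44e-06), and only site 2 was called. The red cell marker Hba-a1 averaged 12.8 units in retina against 46.5 units in cortex on first-site arrays, and 11.2 units in retina against 59.7 units in cortex at site 2, and its part in the Eif2ak1 difference was not tested.

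Eif2ak3, known as PERK, the kinase of the unfolded protein response in the endoplasmic reticulum, was higher in retina. Eif2ak3 read 5.82, 5.72, 6.46, 5.85 and 5.69 units on the retina arrays, against 3.78, 4.58, 3.43, 3.51 and 4.16 units on the cortex arrays, at the first site. Eif2ak3 at site 2 read 4.81, 4.26, 4.62, 5.36 and 4.75 units on the retina arrays, against 2.88, 2.62, 2.72, 3.15 and 2.24 units on the cortex arrays. All retina arrays were above all cortex arrays at both sites. At the first site it was 1.53-fold higher (log2 difference 0.61 ± 0.10, adjusted p = 1.57e-05) and 1.75-fold higher at site 2 (log2 difference 0.81 ± 0.10, adjusted p = 4.16e-07). Eif2ak4, known as GCN2, the kinase that senses uncharged tRNA, showed the smallest difference of the 4. Eif2ak4 read 0.918, 0.819, 0.652, 0.715 and 0.67 units on the retina arrays, against 0.711, 0.882, 0.661, 0.694 and 0.752 units on the cortex arrays, at the first site. Eif2ak4 at site 2 read 0.816, 0.964, 0.767, 0.845 and 0.801 units on the retina arrays, against 0.845, 0.892, 1.04, 0.851 and 0.549 units on the cortex arrays. The tissues overlapped, and the 95% intervals were -0.27 to 0.32 (first site) and -0.26 to 0.33 (site 2). Eif2ak2, known as PKR, the kinase activated by double-stranded RNA, gave 0.04 (first site) and 0.13 (site 2) from a dim probe and did not pass.

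Genes downstream of eIF2 phosphorylation were split as well. Of 16 listed genes of that response 12 were measured, of which 6 passed as higher and 4 as lower in retina at the first site, and 5 as higher and 4 as lower at site 2. At the first site 2 were called higher and 3 lower, and at site 2 the counts were 2 and 2. Not all of these genes are named here. Ddit3, a transcription factor of the stress response, was the furthest above cortex, with 12 units in retina against 2 units in cortex on first-site arrays, and 11 units in retina against 1.91 units in cortex at site 2 (log2 differences 2.58 and 2.53, adjusted p = 4.76e-15 and 6.65e-15). Atf4, the transcription factor whose own message is translated when eIF2 is phosphorylated, gave 0.34 and 0.88, and Ppp1r15a, which targets phosphatase to eIF2, gave 0.67 and 0.76. Genes of amino acid supply on the list differed in direction. Phgdh, the first enzyme of serine synthesis, gave -2.19 and -1.87, the transporter gene Slc7a5 gave -1.53 and -1.57, and Asns, asparagine synthetase, gave -0.93 and -0.52, all passing as lower at both sites. Shmt2, a mitochondrial enzyme that converts serine to glycine, passed as higher at both (0.29 and 0.58), and Slc3a2, the partner chain of Slc7a5, passed as higher at the first site (0.37) and gave 0.16 at site 2. Slc7a11, a cystine transporter gene, passed at neither.

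All 8 measured subunits of eIF3, the scaffold that holds the small ribosomal subunit during initiation, had negative differences at the first site, and 7 of 8 did at site 2. Of these 4 passed as lower at the first site (Eif3a, Eif3c, Eif3e and Eif3f) and 3 at site 2 (Eif3a, Eif3d and Eif3k). The largest subunit gene, Eif3a, differed most. Eif3a read 0.971, 1.1, 0.874, 1.08 and 0.921 units on the retina arrays, against 2.18, 2.44, 2.09, 1.9 and 2.25 units on the cortex arrays, at the first site. Eif3a at site 2 read 0.93, 0.828, 0.782, 0.997 and 0.837 units on the retina arrays, against 1.66, 1.47, 1.44, 1.58 and 1.31 units on the cortex arrays. The tissues did not overlap at either site. Eif3a was 2.2-fold lower in retina on first-site arrays (log2 difference -1.13 ± 0.09, adjusted p = 2.07e-09) and 1.71-fold lower at site 2 (log2 difference -0.77 ± 0.09, adjusted p = 4.78e-07), and only the first site was called. The other 7 subunits lay between -0.35 and -0.09 at the first site and between -0.48 and 0.10 at site 2. Eif3h showed the smallest mean difference over the sites. Eif3h read 33.9, 32.3, 31.9, 32.1 and 29.5 units on the retina arrays, against 29.98, 29.5, 34.7, 38 and 38.6 units on the cortex arrays, at the first site. Eif3h at site 2 read 28.9, 25.9, 25.4, 28.3 and 32.6 units on the retina arrays, against 27.2, 28.5, 25.3, 28.7 and 22.1 units on the cortex arrays. The ranges overlapped at both sites, and the log2 differences were -0.09 (first site) and 0.10 (site 2). Levels were not compared between subunits, since each probe has its own scale.

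The eIF4 group binds the cap of the message and unwinds its leader. Eif4a1, the main helicase of this complex, was lower in retina. Eif4a1 read 22.9, 19.5, 24.3, 23.5 and 21.4 units on the retina arrays, against 39.9, 21.9, 43.4, 49.1 and 46.2 units on the cortex arrays, at the first site. Eif4a1 at site 2 read 23.4, 25.9, 25.1, 25.7 and 25.8 units on the retina arrays, against 55.5, 60.4, 61.1, 46.5 and 45.4 units on the cortex arrays. Cortex first-site replicate 2 lay within the retina range, and the other cortex arrays of both sites lay above every retina array of their site. Eif4a1 was 1.74-fold lower at the first site (log2 difference -0.80 ± 0.16, adjusted p = 0.000312) and 2.12-fold lower at site 2 (log2 difference -1.08 ± 0.16, adjusted p = 1.04e-05). Without cortex first-site replicate 2 the first-site difference was -1.002 and was called, and after quantile normalization the site 2 difference was -0.98 and was not called. The second helicase gene, Eif4a2, which is prominent in brain, gave 0.01 (first site) and -0.25 (site 2) and passed as lower at site 2 only (adjusted p = 0.0245).

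The cap-binding proteins of this group differed in direction. Eif4e, the eIF4E that recruits the complex to the cap, was lower in retina. Eif4e read 18, 15.5, 15.8, 18.2 and 17 units on the retina arrays, against 26.8, 31.3, 26.7, 31 and 32.8 units on the cortex arrays, at the first site. Eif4e at site 2 read 6.05, 6.8, 6.57, 6.99 and 7.85 units on the retina arrays, against 13, 13.8, 11.4, 13 and 10.2 units on the cortex arrays. The tissues were apart at both sites, by 1.76-fold (log2 difference -0.81 ± 0.09, adjusted p = 3.3e-07) and 1.79-fold (log2 difference -0.84 ± 0.09, adjusted p = 2.09e-07). Eif4e2, a homologue with roles in translational repression, was lower too, by 1.81-fold and 1.51-fold on its brighter probe, and its dimmer probe gave log2 differences of -0.52 and -0.84. Eif4e3, the third cap-binding homologue, was higher in retina. Eif4e3 read 1.67, 0.994, 0.955, 0.957 and 1.03 units on the retina arrays, against 0.6, 0.76, 0.698, 0.62 and 0.558 units on the cortex arrays, at the first site. Eif4e3 at site 2 read 1.89, 1.58, 1.52, 1.63 and 1.65 units on the retina arrays, against 1.42, 1.28, 1.27, 1.39 and 1.11 units on the cortex arrays. All retina arrays were above all cortex arrays, with 1.7-fold at the first site (log2 difference 0.76 ± 0.13, adjusted p = 5.86e-05) and 1.28-fold at site 2 (log2 difference 0.36 ± 0.13, adjusted p = 0.0279). The site 2 difference did not pass in 2 of the 20 fits that left out an array.

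Eif4g2, a relative of the scaffold eIF4G that lacks the eIF4E-binding part, was lower at both sites (-0.31 (first site) and -0.64 (site 2)). Eif4h, which stimulates the helicase, differed least. Eif4h read 3.17, 3.82, 4.11, 3.81 and 3.29 units on the retina arrays, against 3.64, 3.35, 3.36, 3.64 and 3.56 units on the cortex arrays, at the first site. Eif4h at site 2 read 3.34, 2.86, 3.08, 2.91 and 2.47 units on the retina arrays, against 2.86, 2.99, 2.74, 3.48 and 2.07 units on the cortex arrays. Its ranges overlapped and the 95% intervals were -0.19 to 0.29 and -0.18 to 0.30. In the whole eIF4 group 4 of 7 members passed as lower and 1 as higher at the first site, and 5 as lower and 1 as higher at site 2.

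Eif4ebp1, which encodes the repressor 4E-BP1 that holds eIF4E until mTOR signalling releases it, was lower in retina. Eif4ebp1 read 0.193, 0.17, 0.211, 0.184 and 0.213 units on the retina arrays, against 0.532, 0.47, 0.583, 0.604 and 0.434 units on the cortex arrays, at the first site. Eif4ebp1 at site 2 read 0.241, 0.202, 0.207, 0.299 and 0.276 units on the retina arrays, against 0.454, 0.435, 0.434, 0.41 and 0.343 units on the cortex arrays. The tissues did not overlap at either site. It was 1.71-fold lower at site 2 (log2 difference -0.77 ± 0.12, adjusted p = 1.65e-05) and 2.69-fold lower at the first site (log2 difference -1.43 ± 0.12, adjusted p = 4.22e-09). In the fit of all 20 arrays Eif4ebp1 was the only member to pass the test of the tissue difference between sites (site 2 minus first site 0.66 ± 0.17, adjusted p = 0.0379), with 0.725% of all probes called and 3.98% passing in that test. That adjusted p ran to 0.0741 when single arrays were left out, and 11 of the 20 such fits did not pass. Other members passed this test under other settings. Without cortex site 2 replicate 5, the array that stood apart, Eif4ebp1 (0.59) and 5 further members passed, namely Eef1e1 (-0.39), Eef1g (-0.42), Eif3d (-0.41), Eif4g2 (-0.40) and Sars2 (-0.60). Eef1e1 (-0.38) and Rars (0.38) also passed after quantile normalization. The related Eif4ebp2 gave -0.19 (first site) and -0.18 (site 2), with a wide 95% interval of -0.75 to 0.37 at the first site, and did not pass.

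Eif4enif1, which encodes 4E-T, the protein that carries eIF4E to the nucleus and to processing bodies, did not pass at either site. Eif4enif1 read 4.45, 4.34, 3.76, 3.92 and 3.65 units on the retina arrays, against 4.34, 4.7, 3.92, 4.26 and 4.8 units on the cortex arrays, at the first site. Eif4enif1 at site 2 read 3.74, 5.87, 3.37, 3.38 and 3.24 units on the retina arrays, against 4.55, 4.86, 5.6, 4.49 and 3.12 units on the cortex arrays. Ranges overlapped at both sites, and the log2 differences were -0.13 (first site) and -0.22 (site 2). Eif5a, which encodes the hypusine-bearing factor that helps ribosomes past difficult stretches, was lower at both sites. Eif5a read 31, 31.1, 30.8, 31.4 and 28.2 units on the retina arrays, against 36.6, 39.4, 42.4, 44.3 and 37.5 units on the cortex arrays, at the first site. Eif5a at site 2 read 26.3, 22, 23.9, 24.1 and 24.4 units on the retina arrays, against 33, 30.03, 27.4, 34 and 22.7 units on the cortex arrays. Only cortex site 2 replicate 5 fell within the retina range of its site. Its differences were small, at 1.31-fold (log2 difference -0.39 ± 0.09, adjusted p = 0.00139) and 1.21-fold (log2 difference -0.27 ± 0.09, adjusted p = 0.0185), and 3 of the 20 fits without an array did not pass at site 2.

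**Figure D3:**
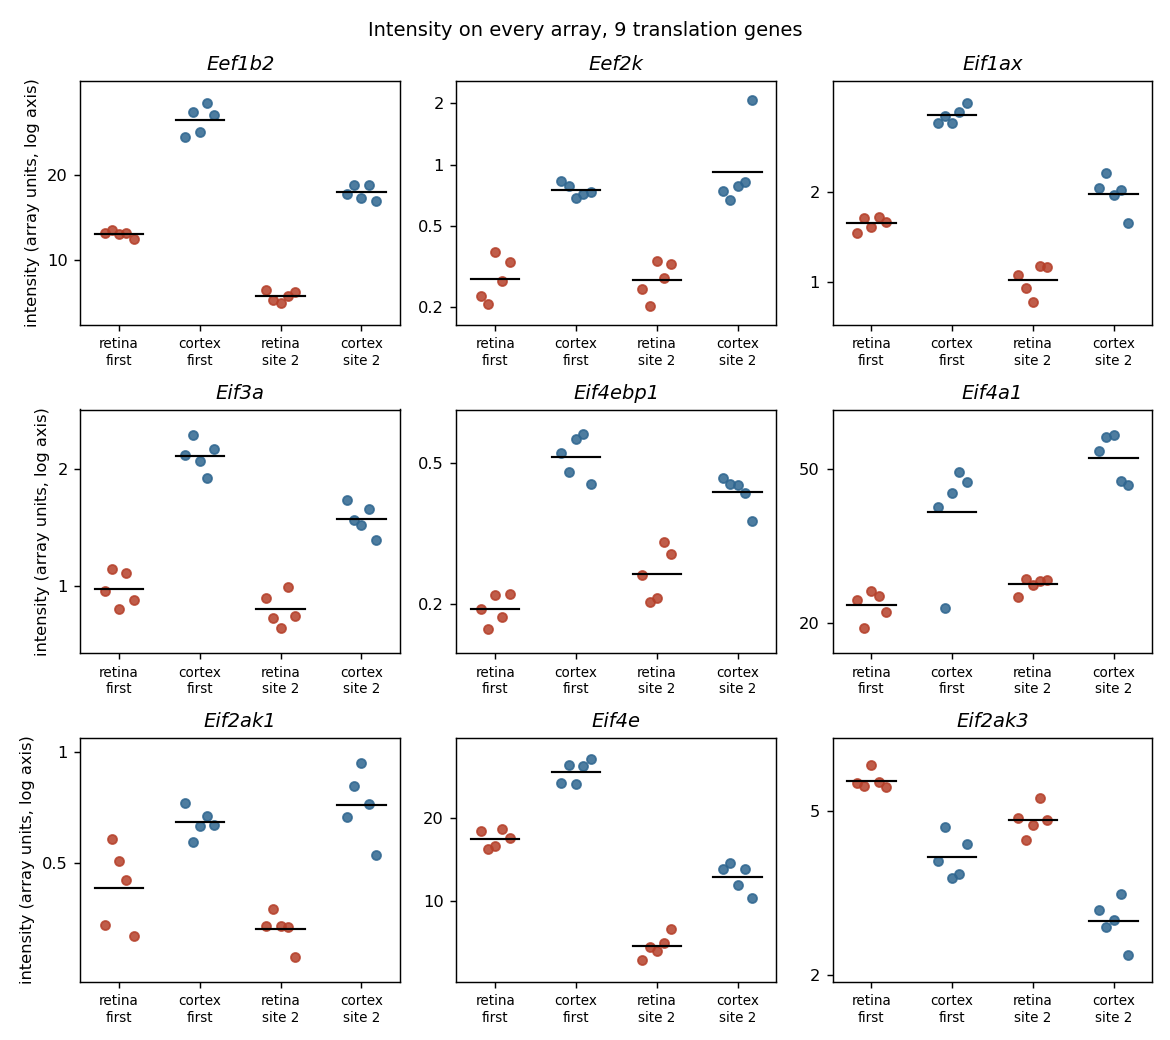
Intensity in array units (log axis) of 9 translation genes on every array, retina in red and cortex in blue, first site on the left and site 2 on the right of each panel, with a bar at the mean of the log2 values. Retina points lie below cortex points except for Eif2ak3, and the exceptions within a panel are 1 low cortex array in Eif4a1 and 1 high retina array in Eif2ak1 at the first site.

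Elongation held the 2 genes that were called at both sites. Eef1b2 encodes the beta subunit of the eEF1B complex, which returns eEF1A to its GTP-bound form. Eef1b2 read 12.5, 12.8, 12.4, 12.5 and 11.9 units on the retina arrays, against 27.4, 33.5, 28.6, 36.2 and 32.7 units on the cortex arrays, at the first site. Eef1b2 at site 2 read 7.84, 7.23, 7.04, 7.47 and 7.72 units on the retina arrays, against 17.2, 18.6, 16.7, 18.5 and 16.3 units on the cortex arrays. The highest retina array was well below the lowest cortex array at each site. Eef1b2 was 2.54-fold lower in retina on first-site arrays (log2 difference -1.34 ± 0.07, adjusted p = 6.11e-12) and 2.34-fold lower at site 2 (log2 difference -1.22 ± 0.07, adjusted p = 2.65e-11). The other subunits of the same complex were lower to a lesser degree, with Eef1g at -0.51 (first site) and -0.83 (site 2) and Eef1d at -0.22 (first site) and -0.39 (site 2).

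Eef2k encodes the kinase that phosphorylates eEF2 and slows elongation. Eef2k read 0.225, 0.206, 0.37, 0.267 and 0.332 units on the retina arrays, against 0.83, 0.788, 0.685, 0.718 and 0.735 units on the cortex arrays, at the first site. Eef2k at site 2 read 0.245, 0.201, 0.336, 0.277 and 0.322 units on the retina arrays, against 0.741, 0.671, 0.782, 0.82 and 2.09 units on the cortex arrays. The tissues did not overlap, and cortex site 2 replicate 5 was far above the other 4 cortex arrays, which read 0.671 to 0.820. Eef2k was 2.75-fold lower in retina on first-site arrays (log2 difference -1.46 ± 0.25, adjusted p = 4.29e-05) and 3.39-fold lower at site 2 (log2 difference -1.76 ± 0.25, adjusted p = 4.43e-06). Without that array the site 2 log2 difference was -1.47 and stayed called. The substrate gene Eef2, the factor that moves the ribosome by a codon, gave -0.16 (first site) and -0.34 (site 2) and passed at neither site.

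The 2 genes of eEF1A, the factor that delivers loaded tRNA, gave differences of opposite sign at both sites. Eef1a1, the widely used form, read 114, 92.5, 88.6, 110.1 and 115 units on the retina arrays, against 103, 102, 116, 125 and 109 units on the cortex arrays, at the first site. Eef1a1 at site 2 read 133, 144, 148, 124 and 148 units on the retina arrays, against 178, 180.4, 172, 186 and 179 units on the cortex arrays. Retina and cortex overlapped at the first site and were apart at site 2, with log2 differences of -0.10 (first site) and -0.37 (site 2) (adjusted p = 0.328 and 0.000915). After quantile normalization the same differences were -0.40 and -0.15, and both passed. The Eef1a1 probe was among the 10 brightest on every array, and whether its reading was limited by the scanner was not tested. Eef1a2, the form that replaces it in mature neurons and muscle, read 9.21, 9.57, 10.7, 9.19 and 8.87 units on the retina arrays, against 6.61, 5.64, 7.21, 6.45 and 6.56 units on the cortex arrays, at the first site. Eef1a2 at site 2 read 7.31, 7.29, 7.06, 6.92 and 6.53 units on the retina arrays, against 6.31, 5.56, 6.09, 5.8 and 7.53 units on the cortex arrays. First-site retina arrays were 1.46-fold higher (log2 difference 0.55 ± 0.08, adjusted p = 1.07e-05), and site 2 did not pass (log2 difference 0.17 ± 0.08, adjusted p = 0.0829). At site 2 every retina array was above every cortex array except cortex replicate 5, the array that stood apart, which read above them all.

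Eef1akmt1 showed the smallest mean difference among the elongation genes. Eef1akmt1 read 5.91, 6.03, 6.32, 6.16 and 5.37 units on the retina arrays, against 5.49, 5.57, 5.89, 6.4 and 6 units on the cortex arrays, at the first site. Eef1akmt1 at site 2 read 4.74, 4.66, 4.67, 4.74 and 4.41 units on the retina arrays, against 4.45, 4.15, 3.94, 4.4 and 3.18 units on the cortex arrays. At site 2, 4 of 5 retina arrays were above every cortex array and the gene passed as 1.16-fold higher (adjusted p = 0.0288). Without cortex site 2 replicate 5 the log2 difference was 0.13, against 0.22 with it, and 4 of the 20 fits that left out single arrays did not pass. Eef1e1, a partner protein of the multi-synthetase complex despite its name, was lower at both sites (-0.29 (first site) and -0.63 (site 2)). In all, 5 of 9 elongation members passed as lower at the first site and 6 at site 2, with 1 passing as higher at each.

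Termination was represented by both genes of eRF3, the GTPase that works with the release factor, and neither moved far. Gspt1, the main form, read 1.96, 1.99, 1.91, 2.11 and 2.27 units on the retina arrays, against 2.13, 2.25, 2.23, 2.19 and 2.01 units on the cortex arrays, at the first site. Gspt1 at site 2 read 1.71, 1.74, 1.73, 1.88 and 1.84 units on the retina arrays, against 2.28, 2.48, 2.4, 1.73 and 1.74 units on the cortex arrays. It overlapped at both sites and passed only at site 2 (log2 difference -0.24 ± 0.10, adjusted p = 0.037), where 6 of the 20 fits without a single array did not pass. Gspt2, an intronless X-linked copy, read 1.23, 1.22, 1.35, 1.29 and 1.29 units on the retina arrays, against 1.36, 1.12, 1.33 and 1.38 units on the 4 measured cortex arrays, at the first site. Gspt2 at site 2 read 1.58, 1.36, 1.37, 1.49 and 1.4 units on the retina arrays, against 1.44, 1.52, 1.39 and 1.33 units on the 4 measured cortex arrays. The blank arrays were left out of its fit, and its 95% intervals of -0.18 to 0.14 and -0.14 to 0.18 were among the narrowest of the members that passed at neither site.

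Synthetases of the cytosol were lower in retina or close to equal. Of 10 measured genes 5 passed as lower at the first site, 4 did so at site 2, and none passed as higher. Vars, valyl-tRNA synthetase, differed most. Vars read 0.758, 0.812, 0.911, 0.829 and 0.768 units on the retina arrays, against 1.39, 1.72, 1.29, 1.28 and 1.49 units on the cortex arrays, at the first site. Vars at site 2 read 1.09, 0.885, 0.966, 1.12 and 0.813 units on the retina arrays, against 1.66, 1.44, 1.64, 1.67 and 3.86 units on the cortex arrays. The tissues did not overlap, and cortex site 2 replicate 5 was the highest of all by a wide margin. Vars was 1.75-fold lower at the first site (log2 difference -0.81 ± 0.19, adjusted p = 0.00135) and 1.97-fold lower at site 2 (log2 difference -0.98 ± 0.19, adjusted p = 0.000229). Without that array the site 2 difference was -0.72, while 6 other fits that left out an array, and quantile normalization with -1.05, carried it past 2-fold.

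Cars, cysteinyl-tRNA synthetase, was the next. Cars read 2.1, 2.35, 2.27, 2.29 and 2.14 units on the retina arrays, against 3.94, 3.17, 3.87, 4.13 and 3.96 units on the cortex arrays, at the first site. Cars at site 2 read 1.19, 1.14, 1.28, 1.08 and 0.993 units on the retina arrays, against 1.83, 2.03, 2.08, 1.94 and 1.43 units on the cortex arrays. Retina was below cortex on every array, by 1.7-fold (log2 difference -0.77 ± 0.10, adjusted p = 1.62e-06) and 1.63-fold (log2 difference -0.70 ± 0.10, adjusted p = 5.1e-06). Hars, the histidine enzyme, was lower at both sites (-0.51 (first site) and -0.71 (site 2)). Rars, the arginine enzyme, and Kars, the lysine enzyme, passed at the first site only (Rars -0.55 (first site) and -0.14 (site 2), Kars -0.30 (first site) and -0.22 (site 2)), and Qars, the glutamine enzyme, at site 2 only (-0.15 (first site) and -0.22 (site 2)). Nars, the asparagine enzyme, was closest to equal. Nars read 9.88, 10.1, 9.58, 10.5 and 11.7 units on the retina arrays, against 11, 9.11, 10.8, 10.5 and 9.7 units on the cortex arrays, at the first site. Nars at site 2 read 14.6, 13.3, 13.8, 13.6 and 14.5 units on the retina arrays, against 14.9, 14.4, 14.7, 12.5 and 11 units on the cortex arrays. Ranges overlapped, with 95% intervals of -0.16 to 0.20 and -0.12 to 0.24. Sars, Tars and Wars, for serine, threonine and tryptophan, lay between -0.12 and 0.23 over the 2 sites and did not pass.

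Mitochondrial synthetases went both ways. Of 6 genes 3 passed as lower and 1 as higher at the first site, and 2 as lower and 2 as higher at site 2. Cars2, the mitochondrial cysteine enzyme, was lower at both. Cars2 read 0.685, 0.754, 0.747, 0.803 and 0.731 units on the retina arrays, against 1.07, 0.759, 1.16, 1.18 and 0.95 units on the cortex arrays, at the first site. Cars2 at site 2 read 0.816, 0.733, 0.774, 0.66 and 0.846 units on the retina arrays, against 1.19, 1.18, 1.17, 1 and 0.799 units on the cortex arrays. At the first site 4 of 5 retina arrays lay below every cortex array and at site 2 3 of 5 did, with log2 differences of -0.44 (first site) and -0.47 (site 2) (adjusted p = 0.00457 and 0.00295). Yars2, the tyrosine enzyme, was lower at both sites too (-0.57 (first site) and -0.25 (site 2)). Sars2, from a dim probe, was higher at the first site (0.66, adjusted p = 0.000506), and Tars2 and Wars2 were higher at site 2 (0.37 and 0.47).

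Hars2, the mitochondrial histidine enzyme, had the smallest mean difference among these. Hars2 read 2.03, 2.39, 2.45, 2.58 and 2.68 units on the retina arrays, against 3.16, 2.63, 3.02, 2.81 and 2.79 units on the cortex arrays, at the first site. Hars2 at site 2 read 3.29, 3.22, 3.28 and 3.36 units on the 4 measured retina arrays, against 3.93, 3.91, 3.62, 3.35 and 2.85 units on the cortex arrays. It passed at the first site (log2 difference -0.25 ± 0.09, adjusted p = 0.0251) and not at site 2 (log2 difference -0.10 ± 0.10, adjusted p = 0.422), and the blank retina array was left out of the fit. Without retina first-site replicate 1 the first-site difference was -0.19, and 3 of the 20 fits without an array did not pass. Cars and Cars2 both passed as lower at both sites, while Hars did so at both and Hars2 at the first site, and the differences between such pairs were not tested.

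Other genes of the translation pathway that do not carry these names were followed in lists. Of 4 genes for rescue and recycling of stalled ribosomes, Abce1, which splits ribosomes after termination, and Hbs1l, which helps rescue stalled ones, passed as lower at both sites (Abce1 -0.95 and -0.94, Hbs1l -0.77 and -0.90). Another gene of that list passed as higher at site 2, by less than 2-fold. Of 10 measured genes for control by mTOR and MAPK signalling, 3 passed as higher and 2 as lower at the first site and 2 each way at site 2. Pdcd4, an inhibitor of eIF4A, was higher in retina, with 3.62 units in retina against 1.93 units in cortex at the first site, and 4.51 units in retina against 2.54 units in cortex at site 2 (log2 differences 0.90 and 0.83). Akt1s1, an mTOR inhibitor, was lower (-1.11 and -0.61) and the only one of that list called, at the first site, and Tsc1, which restrains mTOR, was lower from a dim probe (-0.94 and -0.84).

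Pabpc1, the main cytoplasmic poly(A)-binding protein, was lower at both sites (-0.36 and -0.58), while its antagonist Paip2 was higher at the first site only (0.25 and 0.14). Factors of mitochondrial translation leaned the other way. Of 4 measured, 2 passed as higher at the first site and 3 at site 2, with Tsfm, the mitochondrial elongation factor Ts, at 0.37 and 0.58 and Mtif2, a mitochondrial initiation factor, at 0.27 and 0.36. Aimp1, a scaffold protein of the multi-synthetase complex, was the 1 measured gene of a list of 5 for synthetase subunits and scaffold. Dph2, which acts in making the diphthamide residue of eEF2, was the 1 measured gene of a list of 6 for hypusine and diphthamide. Neither gene passed at either site. Eef1e1, the member described above as a partner protein of the multi-synthetase complex, passed as lower at both sites.

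Between sites, the same RNA pools gave different readings for many of these probes, and the shifts were alike in the tissues (Pearson r = 0.851 across the 59 genes, which share the arrays of each group, given as a description). At site 2 minus first site, 13 members passed as higher and 27 as lower in retina, and 9 as higher and 25 as lower in cortex, beside 22.5% higher and 24.2% lower in retina and 23.1% higher and 23.7% lower in cortex over all probes. Few reached 2-fold. Eif4e was called lower at site 2 in retina (log2 difference -1.31 ± 0.09, adjusted p = 1.65e-08) and in cortex (log2 difference -1.28 ± 0.09, adjusted p = 1.49e-08), with the intensities given above. Cars was called lower at site 2 in cortex (log2 difference -1.04 ± 0.10, adjusted p = 2.43e-07) and was just short of 2-fold in retina (log2 difference -0.98 ± 0.10, adjusted p = 5.17e-07). Eif4e3 was called higher at site 2 in cortex (log2 difference 1.00 ± 0.13, adjusted p = 8.65e-06), against 0.60 in retina. Over all probes 4.79% were called higher and 1.45% lower in retina, and 5.29% higher and 1.92% lower in cortex, against 1 member called in retina and 3 in cortex.

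Single arrays decided the calls nearest the 2-fold line. Without cortex site 2 replicate 5, Cars in cortex was at -0.95 and was not called, and without retina site 2 replicate 3, Cars in retina was at -1.02 and was called. The Eif4e3 call in cortex was lost in 5 of the 20 fits that left out an array (cortex first-site replicates 1, 4 and 5 and cortex site 2 replicates 1 and 4), with values down to 0.95. The 2 tissue differences come from different arrays of the same 2 pools, and their p-values share 1 spread over all 20 arrays. Each site has its own run, and what set the readings of a site was not given by the labels. Some site differences depended on scaling. Eef1a1 read higher at site 2 in retina (0.43) and in cortex (0.69) on the deposited scale, but the cortex value was -0.12 after quantile normalization. Among the tissue differences 5 members at the first site and 4 at site 2 changed sign under that scaling, none of them with an absolute log2 difference above 0.06, and none passed.

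**Figure D4:**
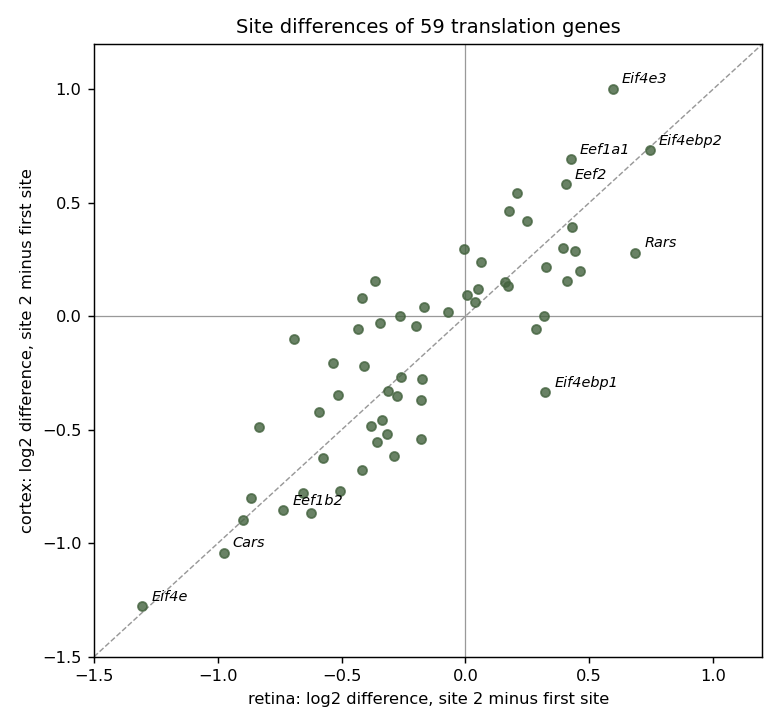
Log2 difference, site 2 minus first site, of the 59 translation genes in retina (horizontal axis) and cortex (vertical axis), with the line of equality dashed. Eif4e lies at -1.31 and -1.28, Cars at -0.98 and -1.04, Eif4e3 at 0.60 and 1.00, and Eif4ebp1 is off the line at 0.32 and -0.33.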

How the data were processed

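Total RNA from 2 pools was labelled with biotin and measured on 20 CodeLink arrays, per the labels. The values are linear intensities as deposited. How they were made (scanning, background, scaling, flags) is not given in the sources used. Array medians of log2 intensity differed by at most 0.0594, so the deposited scaling was kept. Of 10500 probes, values at or below 0 (143) and blanks (2080) were treated as missing, and 10339 probes with at least 3 values in each group were tested. No depth applies to arrays, and the 5 arrays in each group limit the precision.

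Log2 intensities were fitted with lmFit and eBayes of limma 3.58.1 in R 4.3.3, with 1 mean for each of 4 groups over all 20 arrays and 5 contrasts. P-values were adjusted by the Benjamini-Hochberg method over all probes tested. A called gene has an adjusted p under 0.05 and at least a 2-fold difference. The fit was tested on simulated data. Gene names come from a platform annotation, and 9378 probes with exactly 1 symbol were used, which cover 9230 genes. Tables and figures were made with Python 3.11.15, pandas 2.3.3 and matplotlib 3.10.9.

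Values on every array were given by rule for members called at both sites and for those with the largest and smallest absolute mean difference over the 2 sites in each functional class. Other members called in any contrast, and Eif2ak3, Eef1a1 and Eef1a2, were added. Members, lists and alternatives were chosen with earlier results of these data known. The other settings were quantile normalization, floors at the 5th and 25th percentile of intensity, stricter and absent filters on missing values, fits on the compared groups only, the mean of all probes of a gene, a replicate number as block, and each array left out in turn.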

Additional observations from a re-analysis of the deposited data

Results flagged for a closer look

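For 26 genes 104 groups were checked, each of 5 arrays, though a few groups held a blank and thus 4 readings. Of these groups 10 held an array whose gap to the nearest other array exceeded the 95% limit of Dixon's test for 5 readings. All 10 had 5 readings, and chance gives about 1 group in 20. On cortex site 2 replicate 5, the array that stood apart over all probes, Eef2k read 2.09 units (the other 4 arrays read 0.671 to 0.82) and Vars read 3.86 units (others 1.44 to 1.67). On cortex first-site replicate 2, Eif4a1 read 21.9 units (others 39.9 to 49.1) and Cars 3.17 units (others 3.87 to 4.13).

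In retina, first-site replicate 1 was high for Eif4e3 at 1.67 units (others 0.955 to 1.03) and for Eif2s2 at 21.3 units (others 18 to 18.8). First-site replicate 3 was high for Eif2b4 at 8.91 units (others 7.77 to 7.96), and first-site replicate 5 was low for Eif5a at 28.2 units (others 30.8 to 31.4). At site 2, replicate 2 was high for Eif4enif1 at 5.87 units (others 3.24 to 3.74) and replicate 5 low for Eef1akmt1 at 4.41 units (others 4.66 to 4.74). Without retina first-site replicate 1 the Eif4e3 log2 difference at the first site was 0.61 in place of 0.76.

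The tissue difference of Eif4ebp1 was smaller at site 2 than at the first site, by a log2 difference of 0.66 between the sites (adjusted p = 0.0379 in limma), with all 5 retina arrays below all cortex arrays at each site. The adjusted p was 0.151 with the replicate block and at most 0.0741 when single arrays were left out. The retina readings of the gene were dim.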

How the results depend on the processing

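The counts of called members held under the other settings. The 5 called at the first site became 5 to 6 and the 4 called at site 2 became 4 to 5 when single arrays were left out, and other settings gave 5 and 4. For site 2 minus first site in retina, leaving out single arrays gave 1 to 2 called members. The 29 members that passed as lower at each site became 25 to 33 under settings other than leaving out an array, and 24 to 31 and 25 to 34 when an array was left out. With the replicate block, 5 and 4 members were called at the 2 sites, 25 and 27 passed as lower and 4 and 5 as higher, and no member passed the test of the tissue difference between sites. That test passed 1 member with all arrays, 0 to 6 when an array was left out (6 without cortex site 2 replicate 5), 3 after quantile normalization and 4 with a floor at the 25th percentile, where Eef1a2 (-0.38), Eef1e1 (-0.35) and Rars (0.40) joined Eif4ebp1. Rars also passed without retina first-site replicate 5, cortex first-site replicate 5 or cortex site 2 replicate 1. For same-numbered retina and cortex arrays of a site the labels gave only a shared number, and correlations of their deviations ran from -0.0839 to 0.0403. Whether such arrays were handled together was not tested. A block across sites, chosen after seeing the data, left 1 and 3 called members in the site comparisons.

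Of the 33 members that passed at the first site 6 did not pass under some setting, and of the 35 at site 2 7 did not, with adjusted p up to 0.11 and 0.147. Quantile normalization moved the members' medians to -0.35 and -0.30, with -0.02 and 0.00 over all probes. It turned the sign of 2 site differences that had passed, Eif4a2 in retina (0.0090) and Eef1a1 in cortex (-0.12). Under it, probes called at site 2 against the first site were 298 higher and 176 lower in retina (495 and 150 as deposited) and 251 higher and 259 lower in cortex (547 and 198 as deposited). With a floor at the 25th percentile they were 183 higher and 129 lower in retina and 214 and 182 in cortex. For the difference of the tissue difference between sites, 9 probes were called higher and 15 lower with the replicate block, in place of 28 and 47. The cause of these changes was not tested.

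The p-values rest on 2 pools measured repeatedly, so they say nothing of variation between animals. Retina and cortex also differ in strain and age. Array medians of log2 intensity lay within 0.0594 of each other and their scaling is not given, so a change in total RNA per cell was not tested.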
